A study of Macaca mulatta with 6 samples.

Results

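Transcripts of ERK feedback inhibitors and of the PEA3-type ETV factors were compared in rhesus monkey cultures labeled as spermatogonial stem cells (SSCs). The cultures were grown with platelet-derived growth factor (PDGF) or without it. The genes were taken by name, with earlier results of these data known. They were the phosphatases DUSP4, DUSP5 and DUSP6 and the sprouty genes SPRY1, SPRY2 and SPRY4. To these came the sprouty-related genes SPRED1 and SPRED2 and the transcription factor genes ETV4 and ETV5. Of these 10 genes, 7 were analysed, out of 17795 genes in all, and DUSP4, DUSP5 and DUSP6 were not analysed here. All 7 passed the filter on low counts, as did 11539 genes of the whole table. SSC PDGF+ comprised 3 bulk RNA sequencing libraries of cells from testis cultured in hydrogel droplets with PDGF, and SSC PDGF- comprised 3 libraries of PDGF-free controls. The culture methods list a medium with serum that also holds GDNF, EGF, bFGF, LIF and Wnt3a, so ligands of other receptor tyrosine kinases were present beside PDGF. The labels place replicate 1 of both groups in batch 1 and replicates 2 and 3 in batch 2. Donors, their age, the days in culture and whether replicates 2 and 3 are separate cultures are not given in the sources used here, so p-values measure the spread between these libraries, which may be technical.

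PDGF binds receptor tyrosine kinases that switch on RAS, which activates the kinase chain of RAF, MEK and ERK. ERK moves to the nucleus and raises transcription of genes that then restrain it: sprouty proteins block signal flow upstream of RAF, SPRED proteins bring the RAS inhibitor neurofibromin to the membrane, and dual-specificity phosphatases remove phosphate from MAP kinases. ETV4 and ETV5 are ETS-type activators whose transcription follows FGF, GDNF and other receptor tyrosine kinase signals, and ETV5 is known for its need in self-renewal of mouse spermatogonial stem cells. Their transcript levels are often read as the output of the pathway, while the activity of ERK itself was not measured in these libraries.

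The 6 libraries had 10593805 to 14102697 counts, and each SSC PDGF+ library was deeper than each SSC PDGF- library. Levels are therefore given as CPM, read counts scaled to a common library total, after TMM normalization for library composition. Of 11 spermatogonial markers analysed, UCHL1, ID4 and FGFR3 were plainly detected. UCHL1 had 1898 to 3640 counts per library (called higher), ID4 1725 to 1885 (not past the threshold) and FGFR3 106 to 835 (called lower). The others were low: NANOS2 and STRA8 had 0 counts in every library and MAGEA4 had 1 count in all. DDX4, a germ cell marker called lower, had 2 to 38 counts per library, DAZL 0 to 14, SALL4 0 to 10, GFRA1 0 to 9 and ZBTB16 0 to 5. The 6 stromal fibroblast markers, led by COL1A1, COL1A2 and FN1, summed to 19960 to 25030 CPM in SSC PDGF+ and 21950 to 23180 CPM in SSC PDGF-, with COL3A1 lower in edgeR. Most spermatogonial markers were thus near the floor beside high fibroblast markers. SSC is used here as the name on the labels, not as an identity shown by these markers. Some marker sums moved with the groups. The 5 spermatid markers analysed summed to 48.9 to 77.0 CPM with PDGF and 417 to 688 CPM without, the 5 peritubular myoid markers to 368 to 478 and 695 to 907 CPM, and the 3 epithelial markers to 30.7 to 41.8 and 74.7 to 104 CPM. Sums for spermatogonial markers (377 to 437 against 351 to 463 CPM, mostly UCHL1 and ID4, with 1 marker higher and 2 lower), Sertoli markers (2.77 to 5.47 against 4.796 to 5.09 CPM), endothelial markers (12.2 to 16.8 against 11.1 to 16.2 CPM) and myeloid and T cell markers (16.4 to 18.6 against 11.3 to 17.6 CPM) overlapped. Leydig markers, most of them STAR, summed to 265 to 333 and 232 to 269 CPM, with CYP11A1 at 0. In bulk RNA a change in the share of a cell type and a change in RNA per cell cannot be told apart, and the part of cell composition in the results below was not tested.

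All 7 genes had a higher mean with PDGF, and 6 of them rose past the threshold: SPRY1, SPRY2, SPRY4, SPRED1, SPRED2 and ETV4. ETV5 did not. The threshold was a Benjamini-Hochberg adjusted p under 0.05 over all 11539 genes in edgeR's quasi-likelihood test of the 2 groups, under which 7.61% of all genes tested were called higher and 10.7% lower. The members' median log2 fold change was 1.06, beside 0.02 for all genes tested. Each of the 6 genes was higher in every SSC PDGF+ library than in any SSC PDGF- library, as were 18.3% of all genes tested. No member was called lower (0 at an unadjusted p under 0.05, and 0 in DESeq2 or limma-voom). Folds of the 6 genes lay between 1.59 and 2.40, larger than the spread between replicates.

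**Figure D1:**
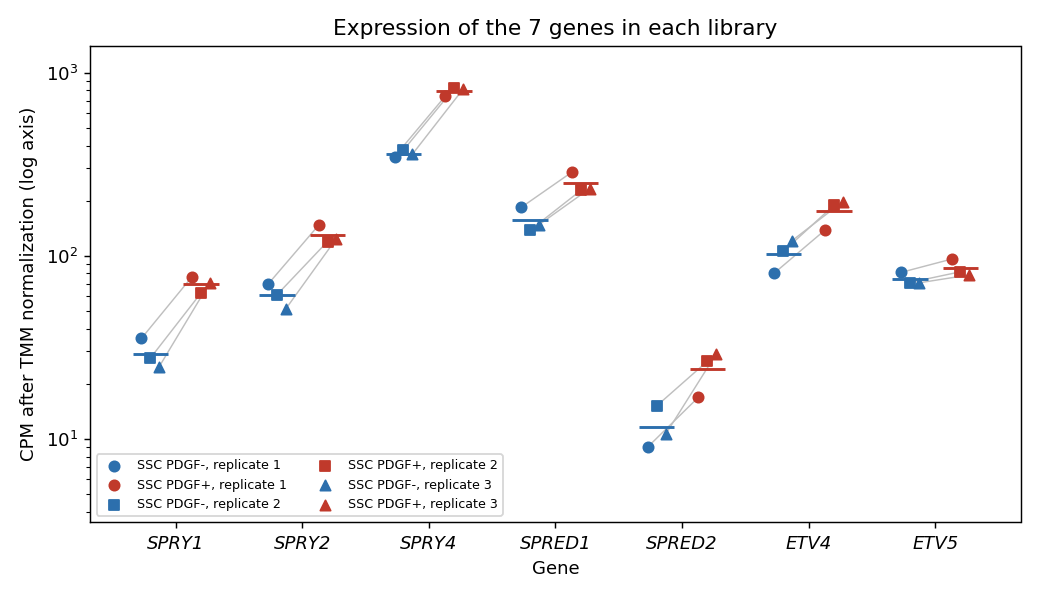
Expression of SPRY1, SPRY2, SPRY4, SPRED1, SPRED2, ETV4 and ETV5 in each library, in CPM after TMM normalization on a log axis. Blue points are SSC PDGF-, red points are SSC PDGF+, the shape gives the replicate number, gray lines join libraries of the same number and bars are the means of 3 libraries. Red points lie above all blue points for each gene except ETV5, whose SSC PDGF+ replicate 3 (78.5 CPM) lies below SSC PDGF- replicate 1 (81.1 CPM).

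Among the sprouty genes, which encode inhibitors induced by receptor tyrosine kinases, all 3 roughly doubled. SPRY4 was at 745, 821 and 812 CPM in SSC PDGF+ replicates 1, 2 and 3 and at 348, 378 and 358 CPM in SSC PDGF- replicates 1, 2 and 3. Its groups were far apart and its replicates close together, with means of 793 ± 41.7 (SD, n = 3) and 362 ± 15.2 CPM (SD, n = 3). The log2 fold change was 1.13 (standard error 0.11, adjusted p = 6.0e-04), a fold of 2.19 with a 95% interval of 1.82 to 2.63. SPRY4 ranked 156 by p among the genes tested, the foremost of the 7.
SPRY1 was at 76.9, 62.5 and 71.4 CPM with PDGF and at 35.4, 27.6 and 24.8 CPM without. The lowest library with PDGF thus stood well above the highest without. It had the largest fold of the 7 genes, 2.40 with a 95% interval of 1.80 to 3.20 (log2 fold change 1.26, standard error 0.18, adjusted p = 0.0029).
SPRY2, the most studied sprouty in receptor tyrosine kinase feedback, was at 147, 120 and 124 CPM with PDGF and at 69.9, 61.2 and 51.2 CPM without. In both groups replicate 1 was the highest library, and the groups did not overlap. The fold was 2.14 with a 95% interval of 1.64 to 2.79 (log2 fold change 1.10, standard error 0.17, adjusted p = 0.0036). The intervals of the 3 sprouty folds overlap widely.

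As the 3 sprouty genes moved by like amounts, the makeup of the sprouty pool stayed within the spread between replicates. Per kilobase of transcript, SPRY4 made up 62.1%, 68.9% and 67.1% of the 3 together with PDGF and 61.9%, 67.8% and 69.9% without. SPRY2 held 19.99% to 24.4% with PDGF and 19.9% to 24.8% without, and SPRY1 held 11.1% to 13.5% and 10.2% to 13.3%. These shares followed the replicate number more than the group, with SPRY4 lowest in replicate 1 of both groups. The shares rest on the length of the longest RefSeq transcript of each gene, since the isoforms counted are not known.

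SPRED1 and SPRED2, which anchor neurofibromin to dampen RAS, both rose, from very different levels. SPRED1 was at 286, 227 and 233 CPM with PDGF and at 184, 138 and 148 CPM without. Replicate 1 was again the highest of each group, and its value without PDGF came within 43.5 CPM of the lowest value with PDGF. The fold of 1.59 (95% interval 1.22 to 2.06) was the smallest of the 6 called (log2 fold change 0.67, standard error 0.16, adjusted p = 0.026).
SPRED2 was at 16.9, 26.5 and 29.1 CPM with PDGF and at 9.03, 15.1 and 10.6 CPM without, on 108 to 387 counts per library. Its groups came nearest to each other of the 6, with SSC PDGF+ replicate 1 at 16.9 CPM just above SSC PDGF- replicate 2 at 15.1 CPM. The fold was 2.09 with a wide 95% interval of 1.34 to 3.23 (log2 fold change 1.06, standard error 0.28, adjusted p = 0.033).

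ETV4, an ETS-type activator downstream of ERK, was at 138, 189 and 197 CPM with PDGF and at 80.5, 106 and 121 CPM without. Like SPRY4 and unlike SPRY1 and SPRY2, it was lowest in replicate 1 of each group, yet no library without PDGF reached the lowest with PDGF. The fold was 1.71 with a 95% interval of 1.24 to 2.36 (log2 fold change 0.77, standard error 0.20, adjusted p = 0.033).
ETV5, its close relative, was at 95.9, 81.8 and 78.5 CPM with PDGF and at 81.1, 71.4 and 71.1 CPM without. These groups overlapped. The log2 fold change of 0.20 (standard error 0.14, adjusted p = 0.38) was a fold of 1.15, with a 95% interval of 0.910 to 1.44 that leaves room for a small decrease and for a rise of up to 1.44-fold. With the replicate number as a block, ETV5 passed the threshold (log2 fold change 0.19, standard error 0.06, adjusted p = 0.011), where 31.1% of all genes tested were called higher and 29.0% lower. After adjustment for transcript GC and length on top of the block it did not (log2 fold change 0.11, adjusted p = 0.12), where 27.7% were called higher.
ETV4 counts per ETV5 count numbered 1.44, 2.31 and 2.51 with PDGF and 0.993, 1.48 and 1.70 without, so the ranges of the ratio overlapped between groups. Within each replicate number the ratio was higher with PDGF, by 0.54, 0.64 and 0.56 on the log2 scale for numbers 1, 2 and 3. The mean difference of 0.58 gave p = 0.3 in a two-sided exact permutation test of 3 libraries against 3, which can go no lower than 0.1. On omitting 1 library, the difference ran from 0.36 without SSC PDGF- replicate 1 to 0.83 without SSC PDGF+ replicate 1. Both of these omissions leave batch 1 in 1 group only. Batch 2 was above batch 1 for ETV4 (0.49 on the log2 scale) and below it for ETV5 (-0.22), and the part of batch in this range was not tested. Within batch 1 alone the difference was 0.54, and within batch 2 alone it was 0.60. A two-sided exact permutation test within pairs of the same replicate number gave p = 0.25, the smallest that 3 pairs allow. The unequal response of the 2 genes was thus the same in direction in 3 of 3 pairs but could not pass a threshold in this design. Numbers 2 and 3 pair the libraries of batch 2 by label alone. ETV1, the third PEA3-type gene, had a log2 fold change of 0.17 (adjusted p = 0.66), or 0.19 with the block (adjusted p = 0.023), and -0.03 with the GC and length correction. CIC, a repressor of PEA3-type genes that ERK signaling relieves, averaged 121 ± 40.3 CPM in SSC PDGF+ and 169 ± 56.7 CPM in SSC PDGF- (SD, n = 3 each) (log2 fold change -0.47, adjusted p = 0.34, or 1.7e-07 with the block). Its log2 fold change was -0.21 on omitting SSC PDGF+ replicate 1, -0.74 on omitting SSC PDGF- replicate 1 and -0.28 after the block with GC and length adjustment; ETV1 and CIC are named because of what was seen in the data.

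**Figure D2:**
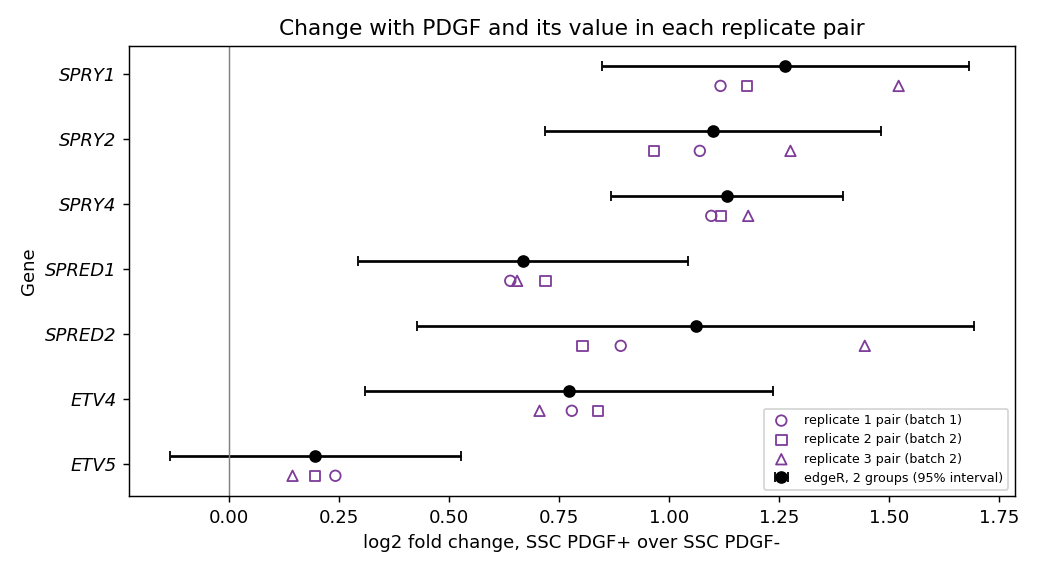
Log2 fold change of SSC PDGF+ over SSC PDGF- for each gene. Black points are edgeR estimates of the 2 groups with 95% intervals, and open purple symbols are the log2 differences within each replicate number, of which number 1 is batch 1 and numbers 2 and 3 are batch 2. The intervals of 6 genes lie above 0, that of ETV5 runs from -0.14 to 0.53, and every open symbol is above 0.

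The rise was seen in both batches. In batch 1, with 1 library per group, the log2 differences were 1.12 for SPRY1, 1.07 for SPRY2, 1.10 for SPRY4, 0.64 for SPRED1, 0.89 for SPRED2, 0.78 for ETV4 and 0.24 for ETV5. The means over both pairs of batch 2 were 1.35, 1.12, 1.15, 0.69, 1.12, 0.77 and 0.17 in the same order. In edgeR's test of the interaction of PDGF with batch no member passed the threshold, 0 of the 7 had an unadjusted p under 0.05, and 526 of 11539 genes (4.56%) did. The interaction estimates ran from -0.07 for ETV5 to 0.23 for SPRY1 on the log2 scale, with standard errors of 0.08 to 0.31, so for SPRED2 in particular the precision was low.
The levels themselves differed between batches in a way that divided the genes. With group in the model, batch 2 was above batch 1 for SPRED2 (0.63 on the log2 scale), ETV4 (0.49) and SPRY4 (0.11), and below it for SPRED1 (-0.34), SPRY1 (-0.30), SPRY2 (-0.29) and ETV5 (-0.22). All 7 of these batch differences passed the threshold in edgeR, as did 57.2% of all genes tested. ETV4 and SPRY4 had the highest GC content of transcript among the 7, 60.2% and 54.0%, and the other 5 lay between 47.6% and 48.6%, SPRED2 among them.
This batch spread stands in the error of the 2-group test, and the calls held unevenly when 1 library was omitted. The fits with 1 library omitted had no batch term, and each omission leaves the 2 groups unequal in their share of each batch. With all 6 libraries and batch as a term, edgeR called SPRED1 (adjusted p = 2.1e-11), SPRED2 (8.2e-07) and ETV4 (3.7e-11) higher. That fit called 3604 genes higher and 3387 lower over all genes. SPRY1, SPRY2 and SPRY4 were called whichever library was omitted, with an adjusted p of up to 0.020, 0.022 and 0.0067. SPRED1 was no longer called when SSC PDGF+ replicate 2 (0.0570) or 3 (0.0608) or SSC PDGF- replicate 2 (0.107) or 3 (0.103) was omitted. The same held for SPRED2 on omitting SSC PDGF+ replicate 2 (0.0965) or 3 (0.105) or SSC PDGF- replicate 3 (0.113). ETV4 was no longer called on omitting SSC PDGF+ replicate 2 (0.102) or 3 (0.109) or SSC PDGF- replicate 2 (0.101) or 3 (0.0502). Calls over all genes dropped as well in these fits. Genes called higher numbered 435 and 447 without SSC PDGF+ replicates 2 and 3. They numbered 444 and 441 without SSC PDGF- replicates 2 and 3, against 878 with all libraries. With replicates 2 and 3 of each group summed into 1 library, SPRY1 (0.048) and SPRY4 (0.031) were called and SPRY2 (0.056), SPRED1 (0.20), SPRED2 (0.17) and ETV4 (0.19) were not; with batch in that model all 7 genes were called higher. Those fits called 1.72% and 30.6% of all genes tested higher.

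Read per kilobase of transcript, so that genes can be set beside each other, SPRY4 and SPRED1 stood highest. In SSC PDGF+ the median level was 145 CPM per kilobase for SPRY4, 131 for SPRED1, 77.0 for ETV4, 44.0 for SPRY2, 26.9 for SPRY1, 20.1 for ETV5 and 6.39 for SPRED2. Of neighbors in this order, SPRY4 and SPRED1 overlapped in their libraries, and the others did not. In SSC PDGF- the order was SPRED1 (83.4), SPRY4 (63.8), ETV4 (43.0), SPRY2 (21.7), ETV5 (17.5), SPRY1 (10.4) and SPRED2 (2.55), where SPRY2 and ETV5 overlapped. By median, SPRED1 and SPRY4 thus traded the first place between the groups, though their libraries overlapped in SSC PDGF+. SPRY1 and ETV5 traded the fifth and sixth places. Over all libraries SPRED1 and SPRY4 lay at percentiles 93.8 and 93.1 of 11237 genes tested that have a transcript length, and SPRED2 at 34.6. The SPRED1 level depends on a longest transcript of 1772 bases, the shortest of the 7, and would be lower if a longer transcript was counted.

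**Figure D3:**
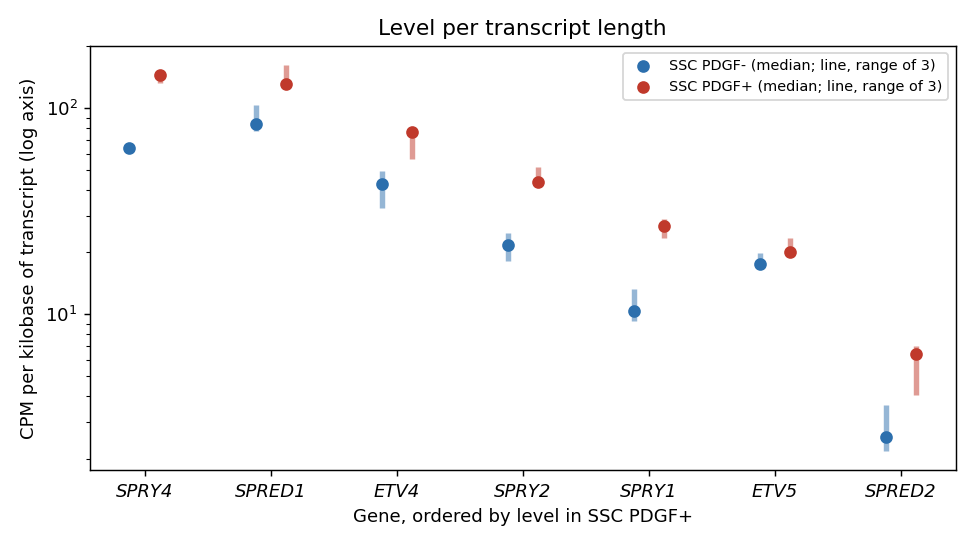
Level of each gene in CPM per kilobase of its longest RefSeq transcript, on a log axis, with genes ordered by SSC PDGF+. Points are medians and lines are ranges of 3 libraries, blue for SSC PDGF- and red for SSC PDGF+. By median, SPRY4 passes SPRED1 and SPRY1 passes ETV5 in SSC PDGF+, where the ranges of SPRY4 and SPRED1 overlap.

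The rest of the pathway was described from lists made with earlier results of these data known. Of 28 ERK pathway components tested, among them adaptors and RAS genes as well as kinases, 4 rose and 1 fell. The other 23 did not pass, and the median log2 fold change was 0.22. The shares, 14.3% higher and 3.57% lower, stand beside 7.61% and 10.7% of all genes tested. With the replicate block 14 rose (50%) and 9 fell (32.1%), beside 31.1% and 29.0% of all genes. RPS6KA3, a kinase activated by ERK, rose from 36.8 ± 6.98 to 85.4 ± 13.03 CPM (SD, n = 3 each; log2 fold change 1.21, adjusted p = 0.0041). MAP2K1, which encodes the ERK activator MEK1, had a log2 fold change of 0.76 (adjusted p = 0.0048). MAP2K2, which encodes MEK2 and is named here after its value was seen, had the opposite sign. It averaged 526 ± 180 CPM in SSC PDGF+ and 886 ± 302 CPM in SSC PDGF- (SD, n = 3 each). Its log2 fold change was -0.75 (adjusted p = 0.15, or 2.3e-13 with the block). PTPN11, a phosphatase that relays receptor signals to RAS and is named here after its value was seen, had a log2 fold change of 0.53 (adjusted p = 0.027) and stayed called on omission of SSC PDGF- replicate 1 alone, with adjusted p of 0.051 to 0.11 on omitting any other library. Its log2 fold change was 0.33 after the block with GC and length adjustment, and adjusted p was 0.054 with upper quartile factors. RPS6KA2, a relative of RPS6KA3, fell from 3.47 ± 1.35 to 0.623 ± 0.337 CPM (SD, n = 3 each; adjusted p = 0.016), on 3 to 47 counts per library, with adjusted p of 0.0546 and 0.0633 without SSC PDGF- replicates 2 and 3.

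Of 19 other brakes on ERK signaling tested, 6 rose (31.6%, beside 7.61% of all genes), 2 fell (10.5%, beside 10.7%) and 11 did not pass, with a median of 0.33. With the block 10 rose (52.6%, beside 31.1%) and 4 fell (21.1%, beside 29.0%), so the share that fell was no larger than that of all genes in either fit. ERRFI1, an inhibitor of EGF receptor kinases, rose from 7.46 ± 1.30 to 54.6 ± 8.81 CPM (SD, n = 3 each; log2 fold change 2.87, adjusted p = 1.5e-04), a larger change than any of the 7 genes showed. LRIG1, which promotes breakdown of ERBB receptors, and SH2B3, an adaptor that restrains kinase signals, had log2 fold changes of 2.06 (adjusted p = 5.8e-04) and 2.05 (adjusted p = 1.9e-04). SPRED3, the third sprouty-related gene, rose from 4.81 ± 0.976 to 12.3 ± 0.995 CPM (SD, n = 3 each; log2 fold change 1.36, adjusted p = 0.0052) and is named here after its value was seen. DUSP10, a phosphatase that acts mainly on stress-activated MAP kinases, fell from 45.8 ± 3.84 to 15.2 ± 1.85 CPM (SD, n = 3 each; log2 fold change -1.59, adjusted p = 7.0e-04). PEBP1 fell by 0.40 on the log2 scale (adjusted p = 0.037), a call that ended on omitting any library but SSC PDGF- replicate 1 (adjusted p of 0.077 to 0.134), and with the GC and length correction its sign turned (0.10).

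Further transcripts known to respond to ERK, listed with earlier results of these data known, mostly moved up, as the 7 genes did. Of 20 genes on this list, 12 were analysed and 11 tested. Of the 11 tested, 8 rose (72.7%, beside 7.61% of all genes), EPHA2 fell and 2 did not pass, with a median of 1.06. The block gave the same counts in each direction. LIF, a cytokine that was also in the medium, rose from 10.8 ± 2.15 to 133 ± 17.3 CPM (SD, n = 3 each; log2 fold change 3.63, adjusted p = 5.7e-05). EGR2, an immediate early transcription factor, had a log2 fold change of 2.46 (adjusted p = 5.1e-04), and PLAUR, the urokinase receptor, one of 1.85 (adjusted p = 1.4e-04). EPHA2, an ephrin receptor, fell from 19.2 ± 5.38 to 7.995 ± 1.85 CPM (SD, n = 3 each; log2 fold change -1.27, adjusted p = 0.016), and this call ended on omitting SSC PDGF+ replicate 3 (0.0641) or SSC PDGF- replicate 2 (0.0664) or 3 (0.0663). Among 19 genes tested on a list of other ETS factors, which also holds the non-ETS repressor CIC, 0 rose in edgeR (1 at an unadjusted p under 0.05, and 0 in DESeq2 and in limma-voom), 2 fell (10.5%, beside 10.7% of all genes) and 17 did not pass, with a median of -0.06. With the block 6 rose and 6 fell (31.6% each, beside 31.1% and 29.0%), so these shares were near those of all genes. The pair that fell, ETV7 (log2 fold change -2.43, adjusted p = 0.0039) and ERG (-2.29, adjusted p = 0.025), had at most 70 and 28 counts in any library, and ERG was not called on omitting replicate 1 or 3 of SSC PDGF+ or replicate 2 or 3 of SSC PDGF- (adjusted p of 0.058 to 0.0925).

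**Figure D4:**
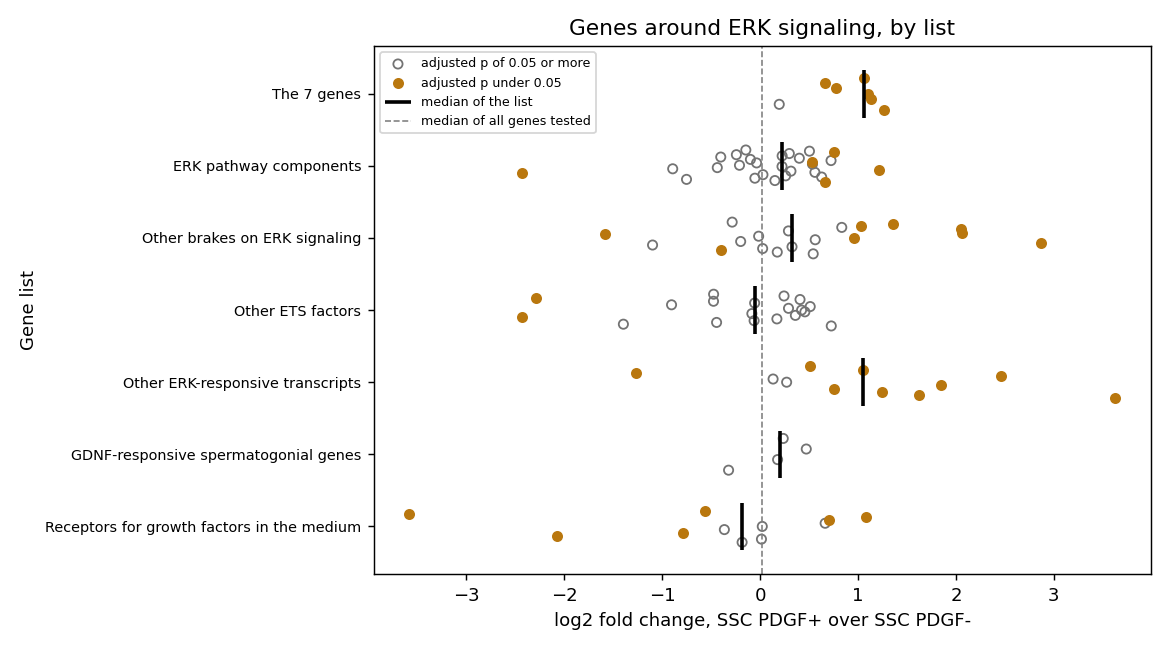
Log2 fold change of SSC PDGF+ over SSC PDGF- for the 7 genes and for the tested genes of 6 lists around ERK signaling. Filled points have an adjusted p under 0.05, open points do not, black bars are list medians and the dashed line is the median of all genes tested. The 7 genes and the other ERK-responsive transcripts have medians of 1.06 each, while the medians of the other 5 lists lie between -0.18 and 0.33.

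Of 11 receptors tested for the growth factors in the medium, 2 rose (18.2%, beside 7.61% of all genes) and 4 fell (36.4%, beside 10.7%), with a median of -0.18. With the block 3 rose (27.3%, beside 31.1%) and 6 fell (54.5%, beside 29.0%). EGFR, the receptor for EGF, rose from 20.8 ± 2.58 to 44.0 ± 4.10 CPM (SD, n = 3 each; log2 fold change 1.08, adjusted p = 0.0039), and IL6ST, the shared chain of the LIF receptor, had a log2 fold change of 0.71 (adjusted p = 0.029, but 0.051 to 0.112 on omitting replicate 1 or 3 of SSC PDGF+ or replicate 2 or 3 of SSC PDGF-). Its log2 fold change was 0.35 after the block with GC and length adjustment, and adjusted p was 0.0534 with upper quartile factors. Of 4 FGF receptor genes tested, 3 fell: FGFR2 from 5.98 ± 1.13 to 0.489 ± 0.231 CPM (SD, n = 3 each; log2 fold change -3.58, adjusted p = 8.7e-04), FGFR3 by 2.07 on the log2 scale (adjusted p = 0.019) and FGFR1 by 0.79 (adjusted p = 0.025). FGFR1 was not called on omitting replicate 1 or 2 of SSC PDGF+ or replicate 2 or 3 of SSC PDGF- (0.0552 to 0.102). FGFR3 was not called on omitting replicate 2 of SSC PDGF+ or replicate 2 or 3 of SSC PDGF- (0.050 to 0.0708). PDGFRA, the fourth to fall (log2 fold change -0.56, adjusted p = 0.044), had counts identical to those of 1 other gene, was not called on omitting any library but SSC PDGF+ replicate 1 (0.0612 to 0.149) and is named here after its value was seen. The receptor chain for GDNF was scarcely detected: GFRA1 had 0 to 9 counts per library and RET 0 to 2, both too few for the filter. Of the GDNF-responsive spermatogonial genes, which were listed without ETV5 although it is known to respond to GDNF, 4 of 9 analysed were tested and none passed in edgeR (0 higher and 1 lower at an unadjusted p under 0.05, and 0 in DESeq2 and limma-voom), and with the block 1 rose and 1 fell. NANOS2 had 0 counts and LHX1 had 2 counts in all.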

How the data were processed

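The authors deposited one table of expected counts per gene for 6 libraries, without normalization; 34 values of 13 genes were not whole, and values were rounded. The submitters' processing notes name fastp, HISAT2 2.1.0, SAMtools and featureCounts 2.0.1 and the builds Mmul_10 and Mmul_8.0.1; the annotation and the strand setting are not given in the sources used here. Libraries held 10593805 to 14102697 counts, and PCR copies remain in them. The plan had assumed whole counts.

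The test was edgeR 4.0.16 (R 4.3.3; TMM, filterByExpr, quasi-likelihood, 2 groups, Benjamini-Hochberg adjusted p under 0.05 over all genes). A standard error is the size of the log2 fold change over the root of its F statistic, and 95% intervals use that statistic's degrees of freedom. Within-pair log2 differences used log2 CPM with a prior count of 2. Members and lists were chosen with earlier results of these data known. Named genes are the 7 members, up to 3 genes per list and direction past the threshold with the largest change, and 2 genes most alike in pattern to each of 3 members; others are marked, and some items are not reported here. Lengths and GC are of the longest RefSeq transcript of Mmul_10, found by name for 17013 of 17795 genes. No member had counts identical to another gene.

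Libraries of the same number share a batch by the labels, and they deviated from their group means together (r over genes = 0.73, 0.35 and 0.37). The cross pairs of replicates 2 and 3 gave 0.39 and 0.36, about as high as their same-number pairs. The values thus pair the libraries by batch, and the pairing of numbers 2 and 3 within batch 2 rests on the labels alone. Replicates 2 and 3 of a group differed by more than sampling noise (chi-square per degree of freedom 3.43 and 3.66). Alternatives were other normalizations and filters, DESeq2 1.42.0, limma-voom (limma 3.58.1), the block, batch as a term, batch 2 alone, a GC and length correction, replicates 2 and 3 summed, a threshold of 0.01 and each library left out. Steps were tested on simulated counts. Exact tests used scipy 1.17.1 under Python 3.11.15, and figures matplotlib 3.10.9.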

Additional observations from a re-analysis of the deposited data

How the results depend on the processing

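All 7 members kept a positive log2 fold change in each of the 19 other fits, and none was called lower in any. The 6 called members were called in every fit at 0.05 but the one with replicates 2 and 3 summed and no batch term (2 members higher) and 4 of those with 1 library left out (3 to 6 higher over the 6), and 3 passed an adjusted p under 0.01. The replicate block, given beside ETV5, changed no other member's call. With the block and GC and length correction, the log2 fold change of ETV4 was 0.97. In the lists, 20 genes were higher and 10 lower; the counts were 42 and 27 with the replicate block and with batch as a term, 39 and 24 in batch 2 alone, 37 and 24 with the block and GC and length correction, 7 and 3 with replicates 2 and 3 summed (where RPS6KA3, MAP2K1, PTPN11, RPS6KA2, SPRED3, CBL, PEBP1, ERG, EPHA2, EGFR, IL6ST, FGFR1, FGFR3 and PDGFRA were not called), 45 and 24 with batch as a term there, a setting chosen after seeing the data, and 14 to 23 and 3 to 13 with 1 library left out. Of the list genes, 6 were lower with at least 10 counts in every library and 3 at the threshold of 0.01. The sign turned for PEBP1 (0.10) and ETV1 (-0.029) with the block and GC and length correction. Over all genes, 878 were higher and 1230 lower, against 3587 and 3347 with the block, 3604 and 3387 with batch as a term, 3041 and 3085 in batch 2 alone, 3117 and 3205 with the correction, 206 and 487 with replicates 2 and 3 summed, 3669 and 3420 with batch as a term there, 358 and 544 at 0.01, 435 to 1284 and 726 to 1726 with 1 library left out, and 865 lower at 10 counts in every library. With 3 libraries per group in 2 batches, and 1 library per group in batch 1, differences between batches in the response of SPRED2 were poorly resolved.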

Other observations

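The genes whose levels ran most alike to the 3 sprouty genes over the 6 libraries were picked by Pearson's r of log2 CPM among 10299 genes, and r is a description here, since 6 libraries in 2 groups share group and batch. HERC3 and CBL were most like SPRY1 (r = 0.9998 and 0.9995), SEMA7A and RARRES1 most like SPRY4 (0.9996 and 0.9991), and SMURF2 and EXOC2 most like SPRY2 (0.9992 and 0.9990). Between 420 and 520 genes exceeded an r of 0.95 with each of them. CBL, an E3 ubiquitin ligase that marks activated receptor tyrosine kinases for breakdown, was at 50.9 CPM with PDGF and 24.9 CPM without (log2 fold change 1.03, adjusted p = 0.0043). SEMA7A, a membrane-bound semaphorin, was at 340 CPM with PDGF and 50.2 CPM without (log2 fold change 2.76, adjusted p = 5.7e-05), so that a like pattern went with a larger change than the 1.13 of SPRY4. HERC3, SMURF2 and EXOC2 had smaller changes than the sprouty genes, with log2 fold changes of 0.75, 0.78 and 0.67, and their calls were less firm. On leaving out 1 library, adjusted p in edgeR reached 0.0564 for HERC3, without SSC PDGF+ replicate 3 or SSC PDGF- replicate 2 or 3, 0.0541 for SMURF2, without SSC PDGF- replicate 3, and 0.0788 for EXOC2, on omitting replicate 2 or 3 of either group. With replicates 2 and 3 of each group summed, it was 0.166 for HERC3, 0.137 for SMURF2, 0.198 for EXOC2 and 0.0803 for CBL, so these 4 were not called there, while SEMA7A was (0.0062).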
